A study of Drosophila melanogaster with 12 samples.

Results

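The genes described are the cuticle protein genes of Drosophila melanogaster, measured in RNA from adult heads. They were chosen by name, as probe sets whose only platform gene symbol begins with Cpr and a number, Lcp, Ccp84, Edg, Twdl or Acp65, or is Pcp. That gave 92 genes of 10843 genes with a single symbol, and the probe set with the highest mean Signal stood for a gene that had more than 1. Of the 92 genes, 36 were bright enough to be tested. A further 7 probe sets carry several symbols that include cuticle genes and are not counted as members; 4 of them were tested and 0 were called by limma in any comparison.

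The study set 2 lines, BG02514 and BG02257, against the wild-type line Canton S B, in females and in males, with 2 arrays for each line and sex (12 arrays). Names of this form belong to a public collection of P-element insertion lines, and the study's title places its question in the Tre1/Gr5a region; the sample labels give neither the inserted element nor its site. All lines were reared at the same time, at 25 °C and 70% humidity under a 12 h light cycle. Each sample was the pooled heads of 100 flies of 1 sex, aged 5 to 7 days. The 2 BG02257 male arrays have the same replicate number and are called 1a and 1b here; the labels would equally fit repeat arrays of 1 sample, and p-values measure the spread between these samples.

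Insect cuticle is a layered extracellular matrix of chitin fibres and proteins that epidermal cells secrete at each moult. Cpr proteins are the largest group and carry the Rebers and Riddiford sequence by which many cuticle proteins bind chitin, a group to which Lcp, Ccp84 and Acp65 proteins also belong, while the Tweedle (Twdl) proteins form a separate family first known from body shape mutants. In the head, cuticle covers the capsule, mouthparts, antennae and bristles, lines the foregut and forms the corneal lens of each eye facet; most of it is laid down before the fly ecloses.

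The values are Signals, relative intensities on a linear scale that the authors had brought to a common level on every array. A Signal depends on the probe set as well as on the RNA, so levels of different genes are given as brightness on the array and not as amounts of RNA. Array medians lay between 182.95 and 206.5. Of 12 listed photoreceptor markers 5 were measured, and none of these was below a Signal of 1897.9 on any array. The summed Signal of 4 neuron markers ran between 1827 on BG02257 male 1a and 4258. In a whole head, fewer cells of a type and less RNA per cell cannot be told apart.

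Most cuticle protein genes were dim. Their median mean Signal was 66.9, against 221.6 for all genes, and 36 of 92 members (39.1%) reached the limit of 128.2 for testing, against 6778 of 10843 genes (62.5%). Below a Signal of 25 lay 14 members, 21 lay between 25 and 50, and 21 between 50 and the limit. Above the limit, 22 members lay under 500, 10 between 500 and 1000, and 4 above 1000. Cpr78Cb lay just inside the limit at 129.0 and Cpr73D just outside it at 125.4.

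The families differed in how many of their members were bright. Of 58 Cpr genes, 24 were tested, and their mean Signals ran between 2.78 (Cpr67Fa2) and 11426 (Cpr72Ec). The Twdl family had 6 of 20 genes tested, with a median mean Signal of 50.3. Genes named for a stage before the adult were mostly dim: Lcp65Aa, named as a larval cuticle protein, had a mean Signal of 516.3, but the other 4 Lcp genes lay between 9.13 (Lcp65Af) and 114.4 (Lcp65Ac). Pcp, the pupal cuticle protein gene, had 52.5. Acp65Aa, named as an adult cuticle protein, had 32.3. Of the Edg genes, known as ecdysone-dependent genes of imaginal discs, Edg84A (253.8) and Edg91 (203.2) were tested and Edg78E (51.8) was not. Ccp84 genes, from a cuticle gene cluster at 84A, had 3 of 4 tested. The plot of mean Signal by family shows bright and dim genes side by side within the Cpr and Twdl families.

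**Figure D1:**
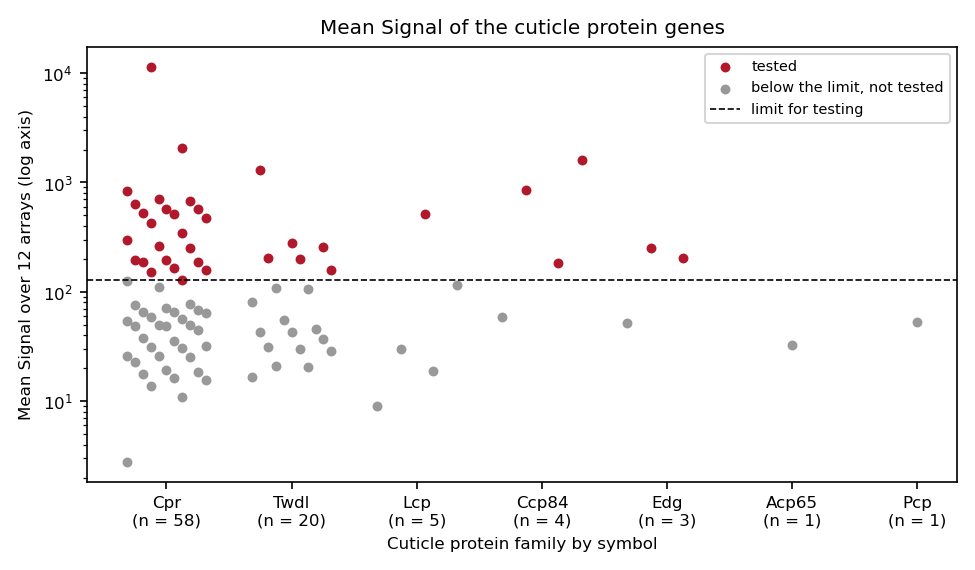
Mean Signal over 12 arrays (log axis) of the 92 cuticle protein genes by family, with tested genes in red, genes below the limit of 128.2 in grey, and the limit as a dashed line. Cpr72Ec stands alone at the top at 11426, and 56 members lie below the limit.

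Brightness also differed along the chromosomes. In the gene order of the RefSeq annotation, cuticle genes formed 19 runs with at most 1 other gene between neighbours. The runs held 64 members, of which 27 were tested, and of the 28 members outside them 9 were tested. All 4 genes of the run Cpr64Aa to Cpr64Ad were tested, and so were both genes of the pair Cpr97Ea and Cpr97Eb. In contrast, 2 of 7 were tested in the run Cpr47Ea to Cpr47Eg, and 0 of 3 in Cpr65Ea to Cpr65Ec. In the run that holds the Lcp65 genes, Acp65Aa and Cpr65Az, 1 of 6 members was tested. Arm 3R had 14 of 28 members tested and 2L had 1 of 6.

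Cpr72Ec, a protein known from the corneal lens, was the brightest member in every group. Its Signal was 6443 and 5732 in BG02514 females and 11657 and 10895 in BG02514 males, 7460 and 14928 in BG02257 females and 10216 and 15662 in BG02257 males, and 13432 and 12949 in Canton S B females and 7507 and 20228 in Canton S B males. Neighbouring arrays of a single group thus differed by as much as the groups did, and only BG02514 females lay below all other arrays. Cpr66D, another corneal lens protein, was dim on this array with both its probe sets (mean Signals of 55.9 and 37.9), while retinin, a corneal lens gene outside the naming rule, had a mean Signal of 33005.

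The other 3 members above 1000 were Cpr67B, Ccp84Ae and TwdlM. Ccp84Ae was the steadiest of all tested members, with a within-group SD of 0.16 on the log2 scale. It had 2064 and 1911 in BG02514 females and 1330 and 1341 in BG02514 males, 1602 and 1272 in BG02257 females and 1604 and 1639 in BG02257 males, and 1826 and 1575 in Canton S B females and 1798 and 1390 in Canton S B males. Females lay above males in BG02514 alone, with arrays of the sexes overlapping in Canton S B and males above females in BG02257. TwdlM had a mean Signal of 1308 on 1 probe set, which may read only some of its transcripts, and 44.4 on its other one. Likewise, TwdlJ had 202.9 and 15.1, and TwdlT 201.4 and 30.6, so the brightness of these Twdl genes depends on the probe set chosen. Ccp84Ad, with a mean Signal of 856.9, is read by a probe set that shares sequence with other members of its family, so its values may include RNA of related genes.

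The sex comparison asked which genes differed between females and males over the 3 lines. Of the 36 tested members, Cpr67B and Cpr64Ac rose in females, and none fell. These 2 calls are 5.56% of members, beside 2.84% of all 8380 tested probe sets (238, of which 164 were higher in females), by limma on log2 Signal with an adjusted p under 0.05. At an unadjusted p under 0.05 there were 4 members (11.1%), beside 15.0% of all probe sets. The members' median log2 difference was 0.14, beside 0.00 over all probe sets, and 24 of 36 lay above 0 (66.7%, beside 50.3%). In no member (0 of 36) did all female arrays lie outside the range of all male arrays, beside 2.96% of all probe sets.

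Cpr64Ac, a Cpr gene of the run at 64A, had the larger of these differences. Its Signal was 837.9 and 1021 in BG02514 females, against 267.0 and 467.9 in BG02514 males. In BG02257 it was 1059 and 295.1 in females, against 479.8 and 147.4 in males. In Canton S B it was 663.7 and 758.1 in females, against 156.7 and 162.5 in males. The sexes did not overlap in BG02514 and Canton S B but did in BG02257, where BG02257 female 2 lay below male 1a. The mean Signal was 773 ± 279 for females and 280 ± 156 for males (SD, 6 arrays each), which gave a log2 difference of 1.54 with an SE of 0.34 and an adjusted p of 0.0379 by limma. By line the log2 difference was 1.39 in BG02514, 1.07 in BG02257 and 2.15 in Canton S B, each with an SE of 0.59.

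Cpr67B, the second brightest member, had a smaller difference and a smaller within-group SD (0.22 on the log2 scale, against 0.77 for Cpr64Ac). Its Signal was 2123 and 1875 in BG02514 females, against 1823 and 1632 in BG02514 males. In BG02257 it was 2443 and 3418 in females, against 2251 and 1619 in males, and in Canton S B it was 2271 and 2735 in females, against 1270 and 1169 in males. Within each line both female arrays lay above both male arrays. The mean Signal was 2478 ± 545 for females and 1627 ± 391 for males (SD, 6 arrays each), which gave a log2 difference of 0.61 with an SE of 0.13 and an adjusted p of 0.0260 by limma. The log2 difference was 0.21 in BG02514, 0.60 in BG02257 and 1.03 in Canton S B, each with an SE of 0.22.

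Both calls were lost in most fits with 1 array left out. Leaving out 1 array at a time, Cpr64Ac lost its call in 10 of 12 fits, with adjusted p-values between 0.0134 and 0.121, and Cpr67B in 8 of 12, with adjusted p-values between 0.0166 and 0.0865. Cpr64Ac kept it without BG02257 female 2 or male 1a, and Cpr67B without BG02257 female 1, male 1a or male 1b or Canton S B female 1; leaving out any other array ended the call. Both calls also ended without the variance trend, with the replicate number as a block and in the model of line and sex on linear Signal, and that of Cpr64Ac with no filter on dim probe sets and with quantile normalization (adjusted p up to 0.213 for Cpr64Ac and 0.156 for Cpr67B). The direction held in each of the fits with 1 array left out, with log2 differences of 1.23 to 1.85 for Cpr64Ac and 0.53 to 0.69 for Cpr67B.

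**Figure D2:**
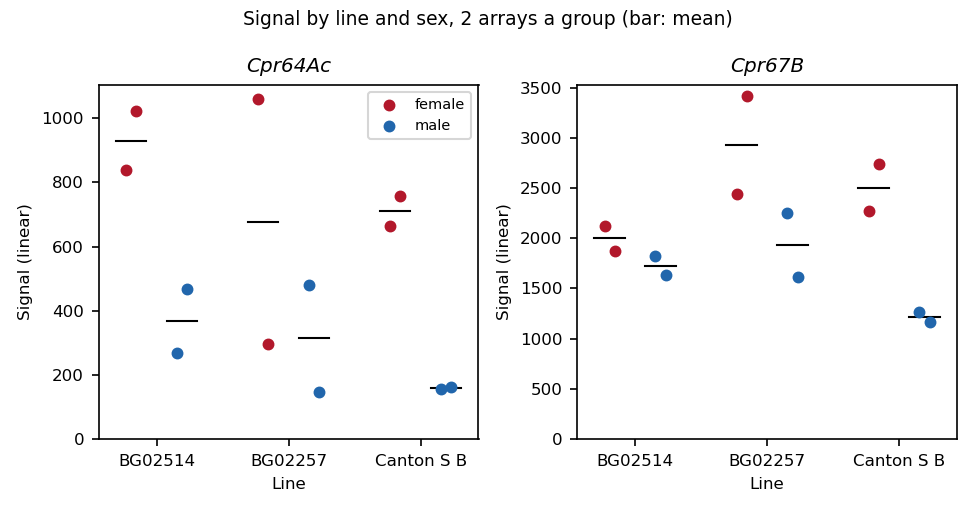
Signal (linear axis) of Cpr64Ac and Cpr67B on each array, with females in red left of males in blue within each line and a bar at the mean of each pair. The sexes overlap in BG02257 for Cpr64Ac, between 295.1 in a female and 479.8 in a male, and in no line for Cpr67B.

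The neighbours of Cpr64Ac in its run were bright too, but none passed the test. Cpr64Aa had a mean Signal of 830.2 and a log2 sex difference of 0.03 ± 0.15, Cpr64Ad a mean Signal of 573.0 and 0.23 ± 0.13, and Cpr64Ab a mean Signal of 188.2 and −0.19 ± 0.32 (SE). The run thus held 1 called gene among 4 tested neighbours.

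Among members that were not called, Ccp84Ad had 978 ± 285 for females and 736 ± 238 for males (SD, 6 arrays each), with a log2 difference of 0.42 (SE 0.15) and an adjusted p of 0.220 by limma. Positive values were also measured for Cpr78Cb (0.57), TwdlJ (0.44, but −0.44 on its dim probe set) and Cpr92A (0.42). The most negative value was that of Cpr31A, at −0.96 ± 0.43 (SE; limma adjusted p = 0.320). Its Signal was 61.6 and 69.6 in BG02514 females, against 395.3 and 134.5 in BG02514 males; in BG02257 it was 192.7 and 162.9 in females, against 243.8 and 52.5 in males; in Canton S B it was 122.0 and 45.0 in females, against 243.5 and 242.4 in males. Males were higher in BG02514 and Canton S B, while BG02257 male 1b lay below both BG02257 females. TwdlG (−0.63), Cpr49Af (−0.51), Lcp65Aa (−0.35) and Cpr72Ec (−0.35) followed, none of them called. The value of TwdlG was −0.94 when Canton S B female 1 (341.7) was left out. Canton S B female 2, the lowest array of TwdlG at 93.2, then stood alone for its group.

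**Figure D3:**
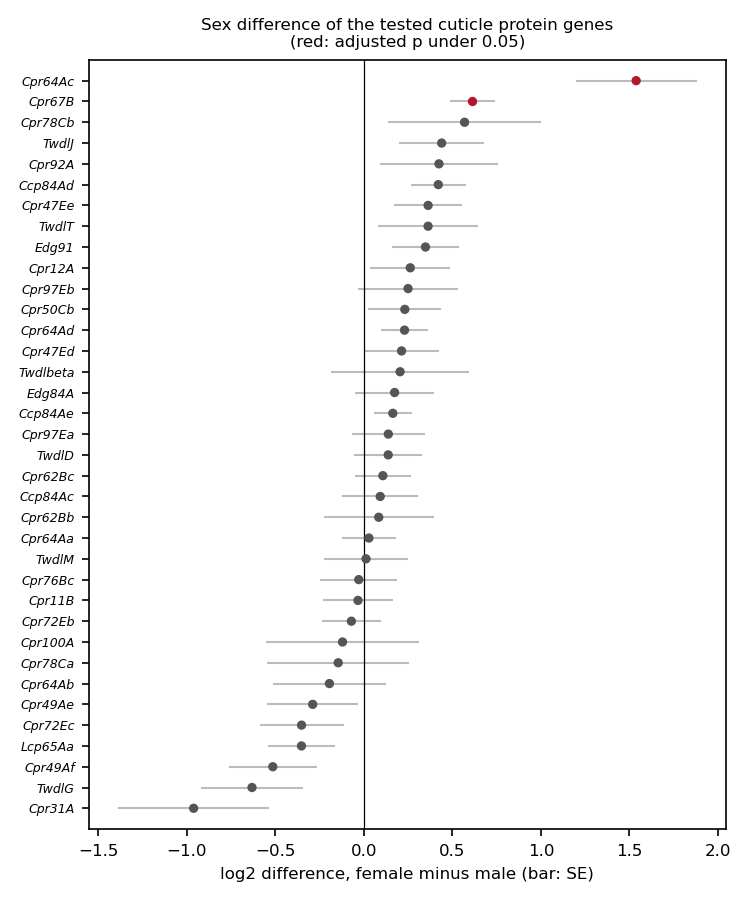
Log2 Signal in females minus males for the 36 tested members, with bars of 1 SE and called members in red. The 2 called members, at 1.54 and 0.61, lie at the top, and 24 of 36 points lie above 0.

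Of the 56 members below the limit, 4 (7.14%) had an unadjusted p under 0.05 for sex when limma was fitted to all 13966 probe sets, beside 12.4% of all of these. None was called (0 of 56, lowest adjusted p = 0.0695), beside 1.04% of all probe sets in that fit. That lowest value belonged to Lcp65Ac, a larval cuticle protein gene of the 65A run, named here after its values were seen. Its Signal was 171.8 and 48.4 in BG02514 females, against 133.5 and 29.2 in BG02514 males. In BG02257 it was 260.6 and 307.0 in females, against 48.6 and 27.5 in males, and in Canton S B it was 140.5 and 141.3 in females, against 38.0 and 26.0 in males. Females lay above males without overlap in BG02257 and Canton S B, and the sexes overlapped in BG02514. The log2 difference was 1.89 ± 0.43 (SE).

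Of 44 tested genes in 4 lists of other genes of cuticle formation, 1 was called for sex, beside 238 of all 8380 tested probe sets (2.84%). In the list of chitin synthesis, modification and assembly, 1 of 15 tested genes was called: Cht2, a chitinase, rose in females by 2.72 ± 0.40 on the log2 scale (SE; limma adjusted p = 0.00516). Its Signal lay between 243.8 and 364.2 on the 6 female arrays, against 16.6 to 102.3 on the 6 male arrays. The sexes thus did not overlap. Every male array of Cht2 lay below the limit for testing, so its place among the tested genes rested on its higher Signal in females. The size of its log2 difference was measured against dim male Signals. None was called among 11 tested genes of tanning and pigmentation, 6 of corneal lens and other cuticle proteins, and 12 regulators. The median log2 differences of these 4 lists were 0.08, 0.09, −0.06 and 0.08, beside 0.00 over all probe sets. No gut marker was called higher in females, but 5 of 6 tested lay above 0, with a median log2 difference of 1.17; their summed Signals ran between 1752 and 6256 in females and between 2310 and 5548 in males. The gut gene LManII fell in females by 0.94 on the log2 scale (limma adjusted p = 0.00734). Signals of the gut markers ran down to 16.6, and detection calls were not used. The part of gut cells in the sex differences was not tested.

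Whether the sex difference depended on line was asked with a moderated F test of limma. It called 0 of 36 members and 0 of 8380 probe sets (0%); at an unadjusted p under 0.05 it gave 1 member and 235 probe sets (2.804%), and the line-by-sex model on linear Signal also called 0. The member was Ccp84Ae (F = 4.13, adjusted p = 0.9997), whose values by sex and line are given above. Cpr31A (F = 3.56) and Cpr67B (F = 3.56) had the next largest F values.

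The line comparisons asked which genes differed in BG02514 and BG02257 from Canton S B, and from each other, as the mean of both sexes. The comparisons share lines, so their values are given side by side. By limma, 0 of 36 members were called in BG02514 against Canton S B, beside 15 of 8380 probe sets (0.179%). In BG02257 against Canton S B 0 were called, beside 8 (0.0955%), and in BG02514 against BG02257 0 were called, beside 28 (0.334%). The line-by-sex model on linear Signal called 0 members in each comparison as well.

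At an unadjusted p under 0.05, limma gave 7 of 36 members in BG02514 against Canton S B (19.4%, beside 8.02% of all probe sets), 2 in BG02257 against Canton S B (5.56%, beside 4.03%) and 7 in BG02514 against BG02257 (19.4%, beside 10.02%). All 4 BG02514 arrays lay outside the range of the 4 Canton S B arrays in 6 members, beside 4.8% of all probe sets. For BG02257 against Canton S B this held in 1 member, beside 2.2%, and for BG02514 against BG02257 in 4, beside 5.69%. The median log2 differences of the members were 0.09, 0.02 and 0.07, beside −0.01 over all probe sets in each comparison.

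The 6 members without overlap in BG02514 against Canton S B were Cpr100A, Cpr97Eb, Cpr49Ae, Cpr76Bc, TwdlT and Ccp84Ac. Cpr100A had 972.0 and 1123 in BG02514 females and 1450 and 1015 in BG02514 males, 683.0 and 226.7 in BG02257 females and 831.1 and 182.2 in BG02257 males, and 287.1 and 630.2 in Canton S B females and 848.6 and 266.5 in Canton S B males. Every BG02514 array lay above every array of the other lines, and within each of those lines the arrays were several-fold apart. It averaged 1140 ± 216 in BG02514, 481 ± 325 in BG02257 and 508 ± 282 in Canton S B (SD, n = 4 each). The log2 difference was 1.32 ± 0.53 for BG02514 minus Canton S B (SE; limma adjusted p = 0.516), −0.20 ± 0.53 for BG02257 minus Canton S B (limma adjusted p = 0.9998) and 1.53 ± 0.53 for BG02514 minus BG02257 (limma adjusted p = 0.360). The value for BG02257 minus Canton S B turned positive, to between 0.08 and 0.35, when any of 4 single arrays was left out.

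Cpr97Eb had 673.1 and 657.7 in BG02514 females and 712.6 and 483.3 in BG02514 males, 466.6 and 265.1 in BG02257 females and 479.8 and 183.3 in BG02257 males, and 292.2 and 341.9 in Canton S B females and 393.2 and 162.5 in Canton S B males. Here too the BG02514 arrays lay above all others. The log2 difference was 1.14 ± 0.35 against Canton S B (SE; limma adjusted p = 0.350, the lowest of the members in that comparison) and 0.95 ± 0.35 against BG02257 (limma adjusted p = 0.378). Cpr76Bc averaged 266 ± 57.7 in BG02514, 151 ± 28.9 in BG02257 and 148 ± 32.4 in Canton S B (SD, n = 4 each), with log2 differences of 0.85 ± 0.27 against Canton S B and 0.81 ± 0.27 against BG02257. Cpr49Ae had 773.1 to 891.8 on the 4 BG02514 arrays, 352.6 to 1153 on the BG02257 arrays and 406.9 to 687.7 on the Canton S B arrays. BG02514 stood clear of Canton S B in this gene but lay inside the range of BG02257.

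TwdlT and Ccp84Ac were lower on the BG02514 arrays. TwdlT had 156.5 and 132.1 in BG02514 females and 52.8 and 199.6 in BG02514 males, 267.0 and 253.9 in BG02257 females and 182.3 and 229.2 in BG02257 males, and 235.6 and 277.6 in Canton S B females and 226.3 and 203.4 in Canton S B males. Ccp84Ac had 144.1 and 95.5 in BG02514 females and 149.5 and 85.7 in BG02514 males, 281.8 and 281.3 in BG02257 females and 193.4 and 202.3 in BG02257 males, and 156.4 and 192.1 in Canton S B females and 256.9 and 173.1 in Canton S B males. For Ccp84Ac no BG02514 array reached any array of the other lines. The BG02514 mean of Ccp84Ac, 118.7, lay below the limit for testing, against means of 194.6 in Canton S B and 239.7 in BG02257. The place of Ccp84Ac among the tested members thus rested on its higher Signal in the other lines. For TwdlT the highest BG02514 array lay between the lowest of BG02257 and the lowest of Canton S B. The log2 differences against Canton S B were −0.95 ± 0.35 for TwdlT (SE; limma adjusted p = 0.486) and −0.73 ± 0.26 for Ccp84Ac (limma adjusted p = 0.472), and against BG02257 they were −0.92 ± 0.35 and −1.03 ± 0.26. The other, dim probe set of TwdlT had a log2 difference of the opposite sign against Canton S B, 0.12, and of −0.68 against BG02257.

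Ccp84Ac and Ccp84Ad, neighbours in the 84A run, had opposite signs in BG02514. Ccp84Ad had 1248 and 1394 in BG02514 females and 1145 and 754.3 in BG02514 males, 649.8 and 797.1 in BG02257 females and 653.4 and 467.1 in BG02257 males, and 843.7 and 935.5 in Canton S B females and 824.9 and 569.1 in Canton S B males. BG02514 and BG02257 overlapped through the lowest BG02514 male alone. Its log2 difference was 0.81 ± 0.19 against BG02257 (SE; limma adjusted p = 0.157, the lowest of the members in any line comparison) and 0.51 ± 0.19 against Canton S B (limma adjusted p = 0.499).

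Cpr78Cb was the member whose BG02257 arrays stood clear of Canton S B. It had 149.9 and 224.6 in BG02257 females and 173.6 and 167.5 in BG02257 males, against 119.6 and 102.7 in Canton S B females and 33.6 and 32.0 in Canton S B males. In BG02514 it had 207.4 and 51.6 in females and 226.8 and 58.6 in males, a spread that covered the range of BG02257 and part of that of Canton S B. The log2 difference was 1.55 ± 0.53 for BG02257 minus Canton S B (SE; limma adjusted p = 0.849), with means of 179 ± 32.1 and 72.0 ± 45.8 (SD, n = 4 each). The mean Signal of Cpr78Cb over all arrays, 129.0, lay just inside the limit for testing, and its Canton S B mean lay below that limit. Its place among the tested members thus rested on its higher Signal in the other lines, and its Canton S B males were dim. Cpr67B, called for sex, had 0.43 ± 0.15 in the same comparison (limma adjusted p = 0.958).

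**Figure D4:**
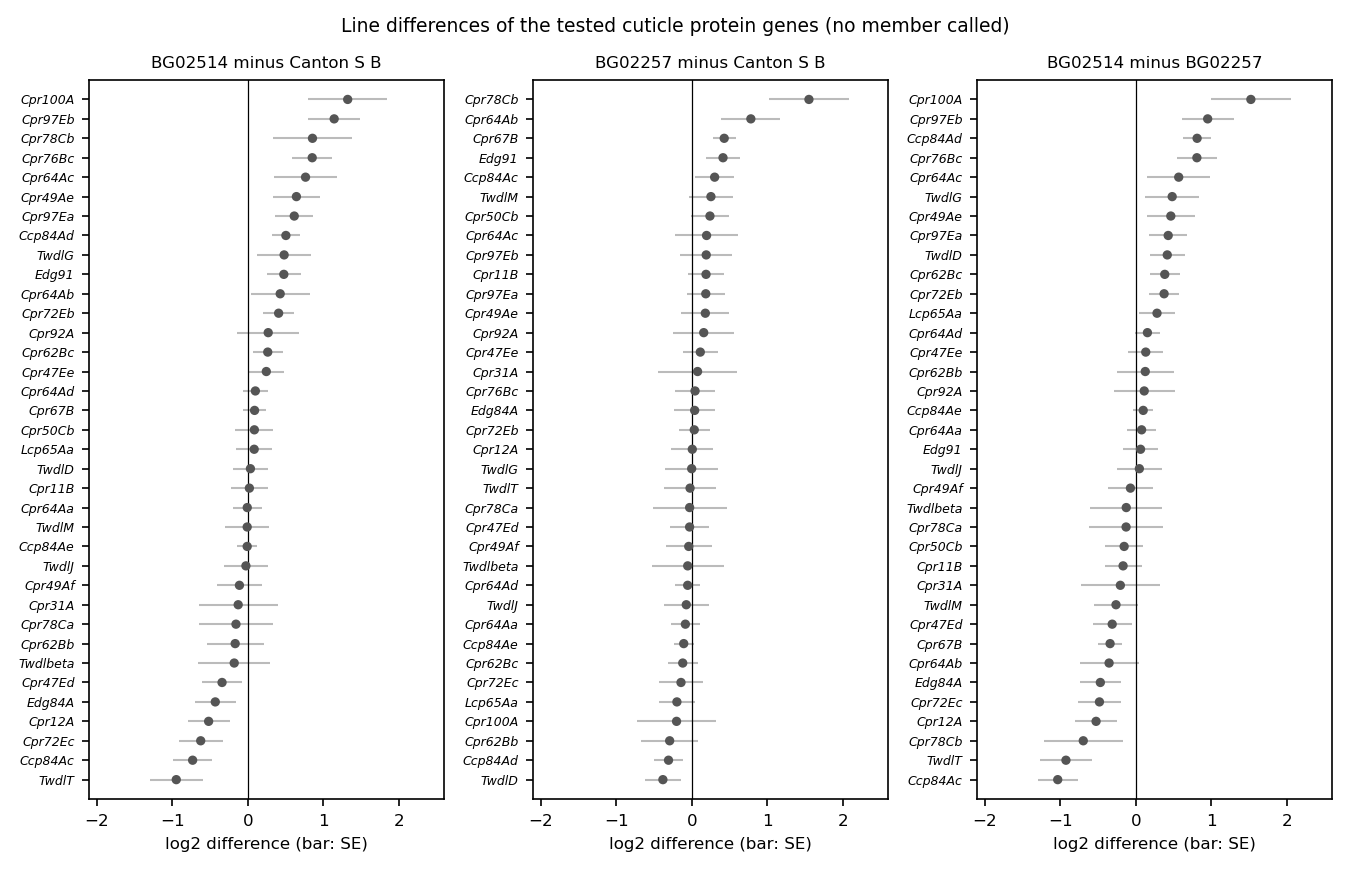
Log2 difference (bar, 1 SE) of the 36 tested members in BG02514 minus Canton S B, BG02257 minus Canton S B and BG02514 minus BG02257, each panel in its own order. Cpr100A and Cpr97Eb lie at the top of the left and right panels, at 1.32 and 1.14 and at 1.53 and 0.95, and no member is called.

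None of the 44 tested genes in the 4 lists of cuticle formation was called in a line comparison, by limma. The shares called over all probe sets were 0.179% in BG02514 minus Canton S B, 0.0955% in BG02257 minus Canton S B and 0.334% in BG02514 minus BG02257. Of the 15 tested chitin genes, 11 lay above 0 in BG02514 minus Canton S B, with a median log2 difference of 0.53, beside −0.01 over all probe sets. The median was 0.00 in BG02257 minus Canton S B and 0.31 in BG02514 minus BG02257. Gut markers were above 0 in 6 of 6 tested genes in BG02514 minus Canton S B, with a median of 1.09. Their summed Signals ran between 3393 and 6256 in BG02514 and between 1752 and 6103 in Canton S B. Among photoreceptor markers chp rose by 1.79 on the log2 scale (limma adjusted p = 0.0148) and inaD fell by 0.85 (limma adjusted p = 0.0275) in the same comparison, and chp rose by 1.73 in BG02257 minus Canton S B (limma adjusted p = 0.0251). In BG02514 minus Canton S B, trp (0.08), Arr1 (−0.10) and Arr2 (−0.06) were not called. There the photoreceptor list had 2 of 5 tested genes above 0 and a median of −0.06. Markers of antenna and bristle support had 0 of 3 tested genes above 0 in BG02514 minus Canton S B, with a median of −0.41 and none called. Their summed Signals in BG02514, at 34603 to 40724, lay below those of both other lines, at 48558 to 58238 in BG02257 and 43325 to 53624 in Canton S B. The part of these cell types in the differences of the cuticle genes was not tested.

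Replicate arrays differed by different amounts from member to member. The median within-group SD of the tested members was 0.44 on the log2 scale, beside 0.28 over all tested probe sets, and it ran between 0.16 (Ccp84Ae) and 0.99 (Cpr100A). For Cpr100A, BG02514 females differed 1.16-fold and BG02514 males 1.43-fold between replicate arrays. BG02257 females differed 3.01-fold and BG02257 males 4.57-fold, and Canton S B females 2.20-fold and Canton S B males 3.19-fold. In each group 5 to 8 of 36 members differed by more than 1 on the log2 scale between its arrays, beside 3.19% (BG02514 females) to 9.58% (BG02257 males) of all tested probe sets. In Canton S B females the median absolute difference between the arrays was 0.28 in the members and 0.28 over all tested probe sets, and in the other 5 groups it was larger in the members.

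Some of these members were high and low on the same arrays. Of 630 pairs of tested members, 5 had a Pearson correlation above 0.8 across the 12 arrays (0.794%), beside 0.350% of all pairs of tested probe sets, and the median was 0.03. The 21 pairs of neighbours within a run had a median of −0.03, and 1 of them, Cpr97Ea with Cpr97Eb, was above 0.8. Arrays of a group share line, sex and rearing, and the correlations count them as separate points.

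The closest pair was Cpr100A with Cpr97Eb (r = 0.92, rho = 0.94, 12 arrays), given as a description because it was picked for its correlation. Without the 2 arrays farthest from the median of Cpr100A, BG02257 male 1b and female 2, r was 0.91. Cpr49Ae (r = 0.84, rho = 0.85) and Cpr76Bc (r = 0.78, rho = 0.91) followed. Cpr100A was then set against the 8379 other tested probe sets, with permutation p-values from 100000 resamples (smallest possible 1e-05) adjusted over all of them; the adjustment does not cover the choice of Cpr100A itself, which was made after the values were seen. For rho, the adjusted p of each pathway gene named below was above 0.05.

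Of 44 tested pathway genes, 6 had r above 0.8 with Cpr100A (13.6%), beside 73 of 8379 probe sets (0.871%), most of which lie outside the members and lists. Cpr100A and the lists were both chosen with results of these data known, so these shares are a description and not a test. Over all 8379, the adjusted p for r was under 0.05 for 9 probe sets with positive and 7 with negative correlations, down to r = −0.99; of the pathway genes it was so for 4, all positive. The 6 pathway genes were obst-B (0.97), Gasp (0.91) and obst-A (0.88), which encode chitin-binding proteins of the obstructor family, serp (0.90) and Cda5 (0.86), which encode chitin deacetylases, and retinin (0.92). Their rho lay between 0.84 and 0.93. By permutation the adjusted p for r was 0.0209 for obst-B, 0.0251 for Gasp, 0.0258 for serp and 0.0359 for retinin, and 0.0595 for obst-A and for Cda5. The permutations moved arrays freely between lines and sexes. A line difference that both genes share therefore also lowers these p-values. Without the same 2 arrays r stayed between 0.84 and 0.95 for these 6 genes. The count above 0.8 was 0 of 11 for tanning and pigmentation, 0 of 12 for regulators and 0 of 31 for the tested markers of other cell types, whose correlations ran between −0.79 and 0.50. In the tanning and pigmentation list the gene e, at r = 0.798, fell just short of 0.8. Correlations in that list ran between −0.55 and 0.798, with a median of 0.32.

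Of these 6 genes, serp differed most between replicate arrays. Its Signal was 738.3 and 867.4 in BG02514 females and 600.0 and 832.0 in BG02514 males, 702.2 and 184.9 in BG02257 females and 702.1 and 66.0 in BG02257 males, and 299.9 and 445.1 in Canton S B females and 546.7 and 257.8 in Canton S B males. BG02257 female 2 and male 1b were lowest in serp, as they were in Cpr100A. The order was not the same in every partner: obst-A was lowest on Canton S B female 1 (549.5), and retinin was lower on Canton S B female 1 (23691), female 2 (27650) and male 2 (23493) than on BG02257 female 2 (28754). Cpr72Ec, also a corneal lens gene, was among its highest on BG02257 female 2 and male 1b. What separated replicate arrays in these genes was not tested.

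**Figure D5:**
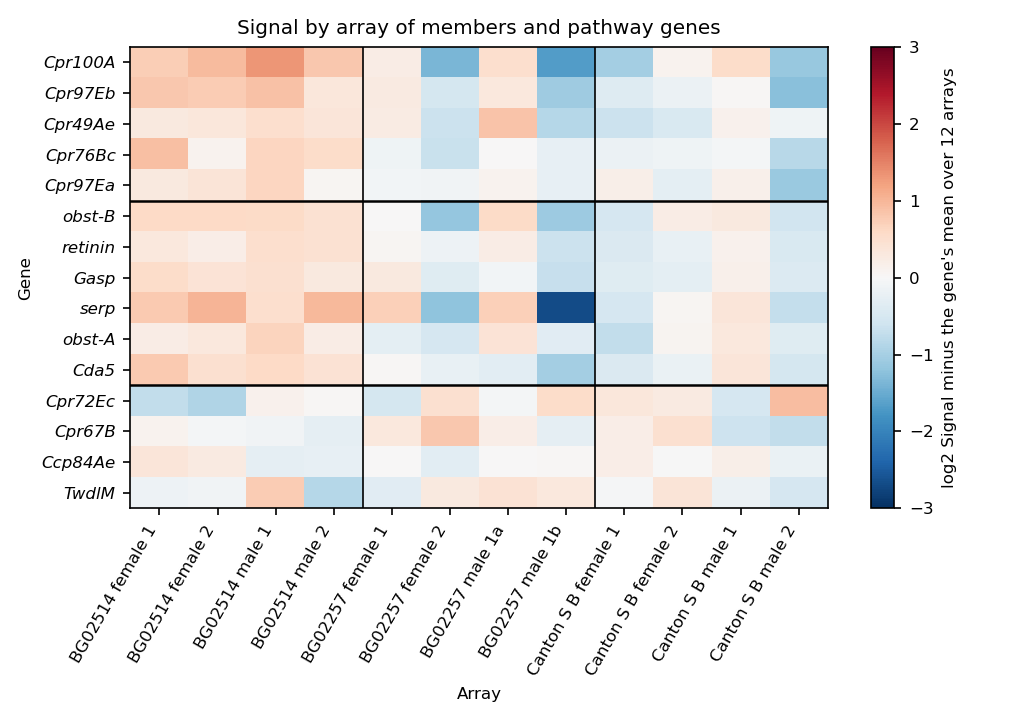
Log2 Signal on each array minus the gene's mean over 12 arrays, from blue (low) to red (high), for 5 members picked after their values were seen (top), 6 pathway genes with r above 0.8 with Cpr100A (middle) and the 4 brightest members (bottom). The top members were Cpr100A and others with r from 0.64 (Cpr97Ea) to 0.92 (Cpr97Eb) with it, and Ccp84Ad, at 0.66, is not shown. The top and middle genes are all below their mean on BG02257 male 1b, and Cpr72Ec is high there, at a Signal of 15662.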

How the data were processed

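The deposited values are Signal intensities that the authors obtained from Affymetrix Microarray Suite 5.0, as the labels state, and neither background settings nor detection calls were used here. Of the probe sets, 44 controls were left out of the tests and 13966 kept. Names came from the platform annotation, and chromosome arms and gene order from the RefSeq gene table for Release 6 plus ISO1 MT; sequences were not used here. Here each array was rescaled to the same trimmed mean (2% off each tail), which moved values by at most 0.0843%, and log2 of Signal was taken.

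Tests covered the 8380 probe sets whose mean Signal reached 128.2 (40th percentile). A single fit over all 12 arrays with a mean for each of the 6 groups, which spans the labels' line, sex and interaction terms, was made in limma 3.58.1 under R 4.3.3 (lmFit, contrasts.fit, eBayes with a variance trend; 6 residual and 5.09 prior degrees of freedom). Tests were two-sided at a Benjamini-Hochberg adjusted p of 0.05 over all these probe sets, and the number of arrays limits the precision. The code was tested on simulated arrays.

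The text names members called in any comparison, the 10 brightest, up to 5 per direction with the largest log2 difference in each signed comparison, the 3 largest interaction F values, called genes of the pathway lists, and further genes singled out after their values were seen. The members and lists were chosen with earlier results of these data known. Alternatives were the filter, the normalization, the pseudocount, the variance prior, the line-by-sex model fitted to each probe set alone on linear Signal, the replicate number as a block, every probe set of a member, the groups in the fit, and each array left out. Replicate numbers did not pair the samples: over 10 pairs of groups the correlation of deviations ran between −0.24 and 0.27, and 1 was above 0.1. BG02257 males, whose arrays share a replicate number, were not among these groups.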

Additional observations from a re-analysis of the deposited data

How the results depend on the processing

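The number of calls changed when single arrays were left out and when the variance was estimated otherwise. The 2 member calls for sex became 1 with no filter and with quantile normalization, and 0 without the variance trend, with the replicate block and in the line-by-sex model on linear Signal; with 1 array left out there were 0 to 2. Over all probe sets the 238 sex calls became 145 with no filter, 100 without the trend and 106 in the linear model, and 116 to 300 with 1 array left out. For BG02514 minus Canton S B the 15 calls became 5 without the trend, 3 in the linear model and 4 (without BG02514 female 2 or male 1) to 20 (without Canton S B female 1) with 1 array left out. For BG02257 minus Canton S B the 8 calls became 3 with the BG02257 males averaged as 1 sample (chosen after seeing the data), 1 without the trend, 1 in a fit of the compared groups, 2 with the replicate block, 3 in the linear model and 2 to 24 with 1 array left out. For BG02514 minus BG02257 the 28 calls became 11 with the males averaged, 9 without the trend, 16 with the replicate block, 3 in the linear model and 2 to 90 with 1 array left out. The sex difference depended on line in 0 probe sets, except 9 without BG02257 male 1b; that array also gave the counts of 300, 24 and 90. Members called in the line comparisons stayed at 0 in every setting run. Among named genes, BG02257 minus Canton S B changed sign for Cpr62Bb (−0.29), which ran between −0.69 and 0.11 with 1 array left out, and for Cpr100A (−0.20), between −0.75 and 0.35. The sex difference of TwdlG was −0.94 without Canton S B female 1, which left its lowest array, Canton S B female 2 at 93.2, alone in that group. The replicate number as a block changed no call of a member beyond those of Cpr64Ac and Cpr67B. With 1 array left out, the other array of its group is assumed to vary like those of the other groups. Where settings moved these values, the cause was not tested.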
